A study of Homo sapiens with 9 samples.

Results

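The 55 genes described here encode the autophagy machinery and the lysosome, and were followed in A375 cells exposed to Salvianolic acid B. They form a named list by function, from the kinase that starts autophagy to the enzymes that digest its cargo. The rule uses no measured value, but the list was drawn up with earlier results of these data known. All 55 were among the 22605 features of the count table, and all 55 passed the filter on low counts that left 13968 genes for testing. A375 is an established melanoma line. Salvianolic acid B (SalB) is a phenolic acid of the medicinal herb Salvia miltiorrhiza. Control cells were untreated, and the other cells received SalB at 100 µM or 200 µM for 48 h, with 3 libraries in each group and every library from the same line. The submitters call the libraries of a group biological replicates and give 1 batch for all 9. The p-values below rest on the spread between these libraries, estimated over all 3 groups together. The line is a single cell line, so the values speak for A375 alone. No vehicle is named for the control cells.

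Macroautophagy is the process by which a cell wraps cytoplasm, protein aggregates or organelles in a double membrane, the autophagosome, and delivers them to the lysosome. A kinase complex and a lipid kinase complex start the membrane, a conjugation system attaches ATG8 proteins such as LC3 to it, cargo receptors such as p62 link cargo to those proteins, and acid hydrolases, kept active by a proton pump, degrade the content. The transcription factors TFEB and TFE3 bind an E-box of the CLEAR type in promoters of many of these genes, and are held in the cytoplasm when mTORC1 is active at the lysosome with the help of the Rag GTPases.

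The E-box CACGTG was searched in the 250 bases upstream of each annotated start, in RefSeq windows of GRCh38.p14, which cover 45 of the 55 genes. CACGTG reads the same on both strands, and so does the longer TCACGTGA, which contains it. At least 1 CACGTG lay in the window of 12 of the 45 genes (26.7%), against 11.2% of 11154 tested genes with a window and 7.73% of all 27305 genes in the RefSeq window table. Counted by window, CACGTG stood in 18.8% of the members' 64 windows and in 8.08% of 16416 windows of tested genes. The longer TCACGTGA was held by 5 of the 45 (11.1%), against 1.97% of the tested genes. The list was chosen by function and includes the TFEB axis, so these shares describe the list and are not a test of it. The 12 genes were RRAGC, ATG3, FNIP1, NEU1, CTSD, CD63, LAMP1, ATG14, ATP6V0D1, GAA, MCOLN1 and CTSA, and LAMP1, ATP6V0D1, GAA, MCOLN1 and CTSA held the longer form. The 6 stretches printed here were picked by expression: of the genes described in full below that hold CACGTG, they belong to those that changed most at 200 µM. Their motif and their change at 200 µM therefore cannot serve as a test of each other. Of the unprinted genes with CACGTG, GAA, CD63 and MCOLN1 were not called at 200 µM against control (log2 fold changes -0.021, 0.13 and 0.37). FNIP1, CTSD and CTSA were called higher there (0.53, 0.54 and 0.61). They run 5′ to 3′ on the strand of the gene, with CACGTG in capitals. The E-box of RRAGC began 112 bases upstream of the start (chr1:38859862-38859901, minus strand), that of NEU1 126 bases upstream (chr6:31862925-31862964, minus strand) and that of ATG3 18 bases upstream (chr3:112561963-112561997, minus strand). ATP6V0D1 had its E-box 59 bases upstream (chr16:67481194-67481233, minus strand) and ATG14 21 bases upstream (chr14:55411831-55411868, minus strand). In LAMP1 there were 5 E-boxes, beginning 192, 176, 159, 142 and 28 bases upstream (chr13:113297030-113297233, plus strand).
RRAGC: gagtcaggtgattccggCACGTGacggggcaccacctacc
NEU1: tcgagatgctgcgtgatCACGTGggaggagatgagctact
LAMP1: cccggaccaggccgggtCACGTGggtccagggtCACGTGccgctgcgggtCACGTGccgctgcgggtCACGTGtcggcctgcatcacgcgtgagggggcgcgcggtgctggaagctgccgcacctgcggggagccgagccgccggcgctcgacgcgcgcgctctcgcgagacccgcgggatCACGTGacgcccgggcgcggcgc
ATG3: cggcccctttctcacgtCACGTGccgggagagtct
ATP6V0D1: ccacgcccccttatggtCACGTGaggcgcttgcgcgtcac
ATG14: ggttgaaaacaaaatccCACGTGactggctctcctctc
A match is a description of these letters and not a measured binding site. No CACGTG stood in the windows of the phagophore membrane, ATG8 or cargo receptor genes, among them SQSTM1, MAP1LC3B and WIPI1, which says only that these letters are not in those windows.

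Depth was 27348621 to 30629685 counts per library. Levels are given as CPM, read counts divided by a library size scaled by TMM and set to a common depth, and changes are log2 fold changes with their standard errors (SE) from a quasi-likelihood fit of edgeR over all 9 libraries, called at a Benjamini-Hochberg adjusted p under 0.05. The melanoma and neural crest markers SOX10 (323 to 552 CPM) and MIA (55.2 to 193 CPM) were well above 0 in every library, whereas the pigment genes MLANA, PMEL, TYR, DCT and TYRP1 stayed at 1.55 CPM or less. Against control, SOX10 was called higher at 100 µM and 200 µM (log2 0.63 and 0.47). MIA (-0.81 and -0.84) and MITF (-0.70 and -0.52) were called lower at both doses. S100A1 was called lower at 100 µM (-0.72) and not called at 200 µM (0.40). S100B was at 39.5 to 43.7 CPM in control, 60.8 to 64.0 CPM at 100 µM and 16.7 to 21.3 CPM at 200 µM. The leukocyte markers summed to 21.6 to 25.2 CPM in control, 18.1 to 20.2 CPM at 100 µM and 59.2 to 84.6 CPM at 200 µM. CD68, itself a lysosomal glycoprotein, was the most abundant of them in every library, at 13.8 to 21.2 CPM in control and at 100 µM and 55.3 to 82.8 CPM at 200 µM. LYZ was at 1.27 to 4.09 CPM, while CD3E and MS4A1 were at 0 in all 9 libraries. Fibroblast and endothelial markers summed to at most 31.7 CPM in control, 53.2 to 56.8 CPM at 100 µM and 36.1 to 41.3 CPM at 200 µM, and epithelial markers, mostly KRT18, to 249.9 to 258, 316 to 349 and 315 to 437 CPM. The part of these marker levels in the results below was not tested. In bulk RNA, fewer cells of a type and less RNA per cell cannot be told apart. Replicate 3 at 200 µM stood apart: mitochondrial genes took 4.69% of its counts against 1.81% to 3.11% in the other 8, and its GC-rich genes were relatively lower (mean log2 level against control of the most GC-rich genes minus that of the most GC-poor, the 12.5% of genes at each end of the GC range, -0.26, against 0.56 and 1.02 in the other 200 µM libraries). The same difference was -0.17 to 0.18 in control and 0.71 to 0.98 at 100 µM.

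At 100 µM the members split between higher and lower, and at 200 µM most called members were higher. Against control, 14 members were higher and 16 lower at 100 µM, that is 30 of 55, where 37.1% of all genes tested were called (18.9% higher and 18.2% lower). At 200 µM, 31 were higher and 3 lower, against 19.8% of all genes higher and 17.5% lower (37.3% called). Between the doses, 32 members were higher at 200 µM and 4 lower, against 22.4% and 21.9% of all genes (44.4% called). The members' median log2 fold change was -0.11 at 100 µM, 0.43 at 200 µM and 0.46 between the doses, beside medians of -0.012, 0.003 and -0.006 over all genes. The comparisons with control share their 3 control libraries, and the values of each are given side by side. The groups' ranges did not overlap for 45 members at 100 µM (67% of all genes), 40 at 200 µM (48.8%) and 39 between the doses (53.3%). An absolute log2 fold change of at least 1 was reached by 5 called members at 100 µM (7.9% of all genes), 10 at 200 µM (9.33%) and 12 between the doses (13.8%). Summed over the 55 genes, the level was 5905 to 5972 CPM in control, 5041 to 5179 CPM at 100 µM and 8008 to 8754 CPM at 200 µM. Without SQSTM1 the sums were 5528 to 5557, 4910 to 5031 and 6742 to 6995 CPM, in the same order.

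**Figure D1:**
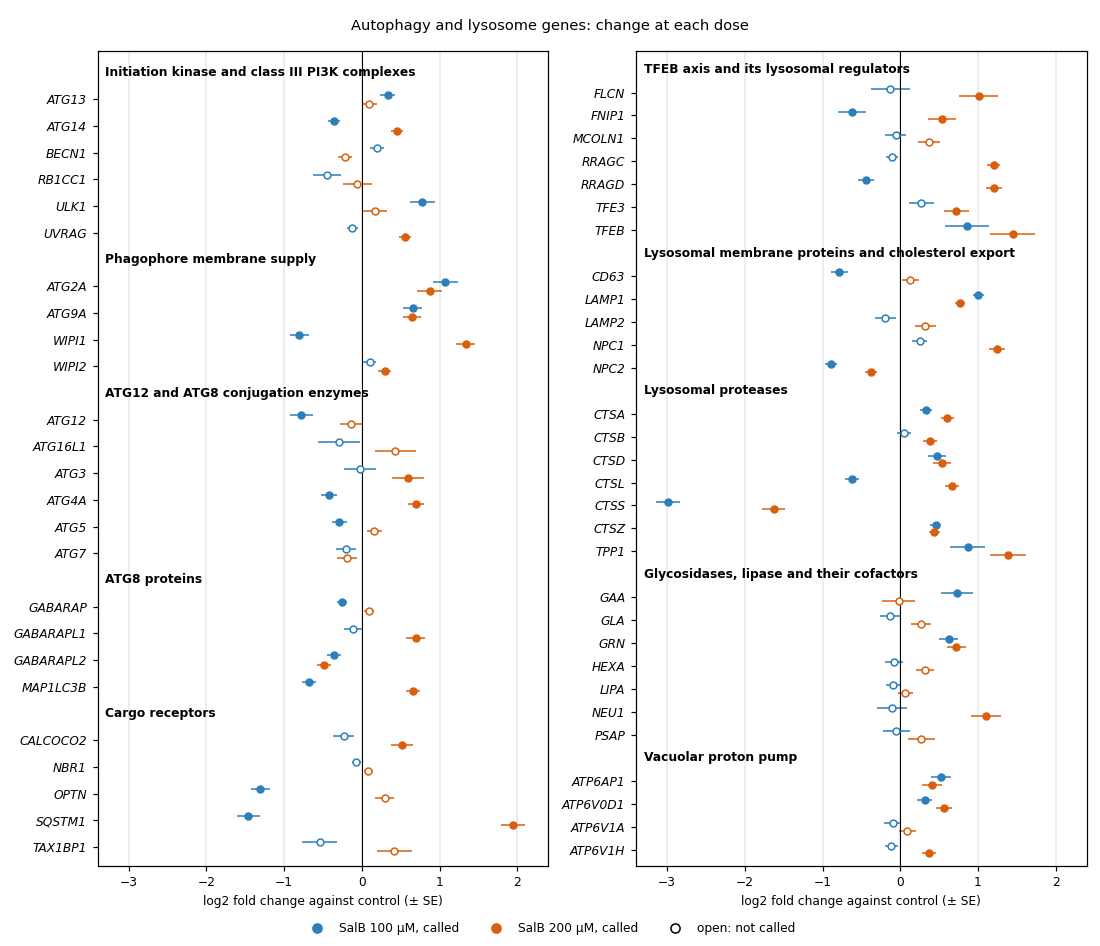
Log2 fold change against control with its SE (horizontal axis) for each of the 55 genes (vertical axis) in 10 groups by role, at 100 µM (blue) and 200 µM (orange); filled points were called. Blue points lie on both sides of 0, with 14 called higher and 16 lower, and orange points lie mostly to the right, with 31 called higher and 3 lower.

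**Figure D2:**
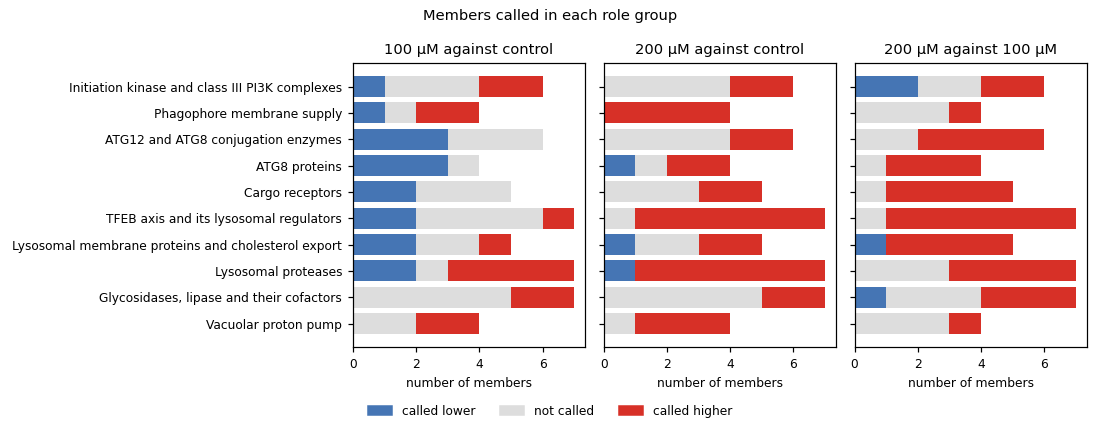
Number of members (horizontal axis) called lower (blue), not called (grey) and called higher (red) in each of the 10 groups by role (vertical axis), in the 3 comparisons. All 4 genes of membrane supply and 6 of 7 of the TFEB axis were called higher at 200 µM against control, where 19.8% of all genes tested were called higher.

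These counts were recomputed without the 200 µM library that stood apart, and the direction of the split at 200 µM held. Without 200 µM replicate 3 there were 17 higher and 20 lower at 100 µM (56.1% of all genes called), 37 higher and 4 lower at 200 µM (53.8%), and 39 higher and 4 lower between the doses (54.2%). The median moved to 0.45 at 200 µM. The largest move of a member at 200 µM was that of TPP1, by 0.36 in log2. Calls gained at 200 µM without it were those of PSAP (log2 0.49, edgeR adjusted p = 6.11e-05), HEXA (0.45), GLA (0.40), MCOLN1 (0.46), CD63 (0.27), ATG13 (0.19) and RB1CC1 (-0.32). At 100 µM the calls gained were those of TAX1BP1 (-0.52), RB1CC1 (-0.42), CALCOCO2 (-0.21), ATG7 (-0.18), NPC1 (0.27), BECN1 (0.22) and WIPI2 (0.12). RB1CC1 at 100 µM was called in 3 of 19 alternative fits, over which its value ranged from -0.48 to -0.03. The members' values at 100 µM moved by at most 0.0241 in log2. The spread is estimated over all groups, so that of the 200 µM libraries enters the p-values at 100 µM. Leaving out other libraries mattered most at 100 µM: the number of higher members fell from 14 to 9 without control replicate 1 and to 6 without control replicate 2 or 100 µM replicate 1, and the number called fell to 18 without 100 µM replicate 1. The 4 members lower between the doses became 2 without 100 µM replicate 1 or 2. Of the calls, 17 of 30 at 100 µM, 29 of 34 at 200 µM and 25 of 36 between the doses held without any 1 library. Over all genes, leaving out 1 library gave 3469 to 7943 calls at 100 µM, 3719 to 7614 at 200 µM and 4813 to 7668 between the doses. With all libraries these were 5181, 5211 and 6196. The share of all genes' calls that held without any 1 library was not computed.

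At 100 µM the members' change moved with the GC content of their transcripts. Across the 55 genes, the log2 fold change and the GC content had a Spearman correlation of 0.61 at 100 µM, 0.34 at 200 µM and -0.38 between the doses, as a description of genes that share the same libraries. The values with 200 µM include its replicate 3, whose GC-rich genes were relatively lower (-0.26, against 0.56 and 1.02 in the other 200 µM libraries). The correlations were not recomputed without that library. The median GC content was 59.0% among members higher at 100 µM and 44.4% among those lower. With a GC trend removed from each library, 9 members were higher and 14 lower at 100 µM (38.7% of all genes called), 34 higher and 3 lower at 200 µM (47%), and 39 higher and 5 lower between the doses (52.5%). The calls at 100 µM that this setting lost were those of ATG4A (-0.23), ATG5 (0.063, with the sign turned), GABARAPL2 (-0.15), TFEB (0.61), CTSA (0.0045), CTSD (0.098), CTSZ (0.19), GAA (0.35) and ATP6V0D1 (0.050). This setting also called LAMP2 (0.22, with the sign turned) and MCOLN1 (-0.41) at 100 µM. At 200 µM it lost no member's call and gained those of ATG5 (0.33), OPTN (0.29) and LAMP2 (0.52). Between the doses it lost none. It gained there ATG13 (-0.18), WIPI2 (0.29), ATG16L1 (0.70), TFEB (0.73), CTSD (0.30), PSAP (0.40), GRN (0.30) and ATP6V0D1 (0.42). Calls that held could also shrink. Across all 19 alternative fits, values at 100 µM spanned 0.40 to 0.86 (ULK1), 0.28 to 0.69 (GRN) and -0.80 to -0.37 (ATG12). Spans were narrower for LAMP1 (0.90 to 1.07) and SQSTM1 (-1.72 to -1.37).

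**Figure D3:**
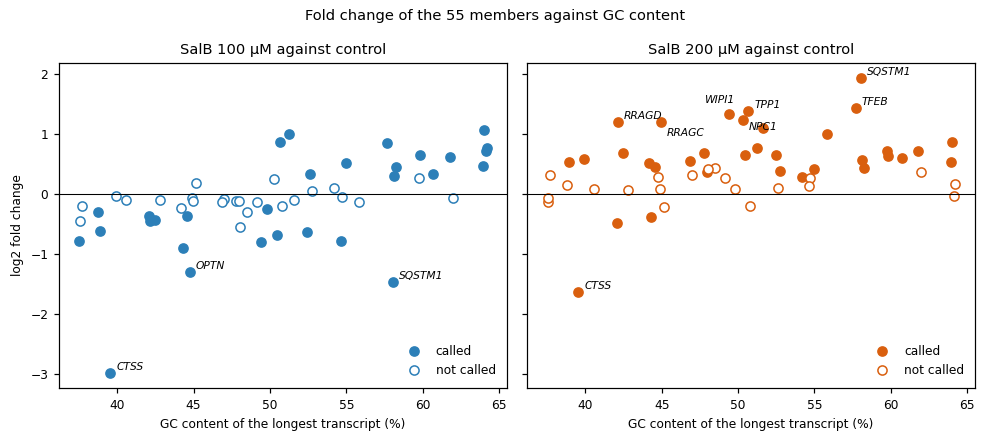
Log2 fold change against control (vertical axis) against the GC content of the longest transcript in percent (horizontal axis) for the 55 genes, at 100 µM (left) and 200 µM (right); filled points were called. On the left the points climb with GC content (Spearman 0.61, a description), with CTSS far below the rest. On the right the climb is shallower (0.34), with 200 µM replicate 3 included, whose GC-rich genes were relatively lower.

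Among the 6 genes of the initiating kinase and lipid kinase complexes, the calls differed between genes of the same complex. At 100 µM, 2 of 6 were higher and 1 lower, at 200 µM 2 were higher and none lower, and between the doses 2 were higher and 2 lower. That is 50%, 33.3% and 66.7% called, beside 37.1%, 37.3% and 44.4% of all genes tested. The same shares of all genes stand beside the counts of each group that follows. ULK1, the kinase that starts autophagy, stood at 17.6, 15.6 and 18.4 CPM in the control libraries, 33.6, 28.1 and 26.7 CPM at 100 µM and 18.9, 23.4 and 15.5 CPM at 200 µM. The 100 µM libraries lay above all others, and the 200 µM libraries overlapped with control. For ULK1 the log2 fold change against control was 0.78 ± 0.16 (SE, edgeR adjusted p = 0.00508) at 100 µM and 0.16 ± 0.16 (SE, edgeR adjusted p = 0.457) at 200 µM. ULK1 at 200 µM against 100 µM had a log2 difference of -0.61 ± 0.16 (SE, edgeR adjusted p = 0.0123). Its partner ATG13 had a log2 fold change of 0.34 ± 0.10 (SE, edgeR adjusted p = 0.0244) at 100 µM and 0.10 ± 0.10 (SE, edgeR adjusted p = 0.471) at 200 µM, and the scaffold RB1CC1 of -0.45 ± 0.18 (SE, edgeR adjusted p = 0.0856) and -0.058 ± 0.18 (SE, edgeR adjusted p = 0.833). ATG14, which directs the lipid kinase to autophagosome formation, stood at 35.2, 35.8 and 37 CPM in the control libraries, 26.5, 29.5 and 28.4 CPM at 100 µM and 48.7, 47.6 and 51.5 CPM at 200 µM. The 3 groups did not overlap: the 100 µM libraries were lowest and the 200 µM libraries highest. For ATG14 the log2 fold change against control was -0.36 ± 0.08 (SE, edgeR adjusted p = 0.00778) at 100 µM and 0.45 ± 0.08 (SE, edgeR adjusted p = 0.00225) at 200 µM. ATG14 at 200 µM against 100 µM had a log2 difference of 0.81 ± 0.08 (SE, edgeR adjusted p = 5.82e-05). UVRAG, which takes the place of ATG14 in a second form of the complex, stood at 44.9, 46.5 and 42.8 CPM in the control libraries, 42.2, 40.6 and 40.5 CPM at 100 µM and 66.8, 63 and 66.9 CPM at 200 µM. Its 200 µM libraries lay above all others, and its 100 µM libraries just below control. For UVRAG the log2 fold change against control was -0.12 ± 0.074 (SE, edgeR adjusted p = 0.231) at 100 µM and 0.55 ± 0.074 (SE, edgeR adjusted p = 0.000499) at 200 µM. UVRAG at 200 µM against 100 µM had a log2 difference of 0.67 ± 0.074 (SE, edgeR adjusted p = 0.000109). BECN1, the shared subunit, which has 12.4% of its exon bases in common with CNTD1, was called only between the doses, at -0.41 ± 0.092 (SE, edgeR adjusted p = 0.00616), with 0.19 and -0.22 against control. ATG13 was no longer called at 100 µM without any 1 of the control libraries or 100 µM replicate 1 or 2 (log2 0.28 to 0.36, adjusted p = 0.0615 to 0.0952). ULK1 was no longer called between the doses without 100 µM replicate 1 (log2 -0.51, adjusted p = 0.0519). A call was gained for BECN1 at 200 µM without 200 µM replicate 2 (log2 -0.28, adjusted p = 0.0435), RB1CC1 between the doses without 200 µM replicate 2 (log2 0.53, adjusted p = 0.0148) and ATG13 between the doses without 200 µM replicate 2 (log2 -0.35, adjusted p = 0.0107). Without 200 µM replicate 3, in contrast, RB1CC1 between the doses was at 0.10 (edgeR adjusted p = 0.326), BECN1 at 200 µM at -0.11 (edgeR adjusted p = 0.121) and ATG13 between the doses at -0.17 (edgeR adjusted p = 0.0829).

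The 4 genes that supply the growing membrane were all higher at 200 µM. At 100 µM, 2 were higher and 1 lower. Between the doses only 1 was called, as higher (25%, beside 44.4% of all genes tested). WIPI1, which binds the lipid made by the kinase complex, stood at 31.3, 35.2 and 36.6 CPM in the control libraries, 20.7, 19.1 and 19.2 CPM at 100 µM and 80.2, 77.8 and 103 CPM at 200 µM. The groups did not overlap, with 100 µM lowest and 200 µM highest. For WIPI1 the log2 fold change against control was -0.80 ± 0.12 (SE, edgeR adjusted p = 0.00115) at 100 µM and 1.34 ± 0.12 (SE, edgeR adjusted p = 6.07e-05) at 200 µM. WIPI1 at 200 µM against 100 µM had a log2 difference of 2.14 ± 0.13 (SE, edgeR adjusted p = 3.15e-06). Of its exon bases, 24.3% are shared with ARSG on the other strand, and since the strand setting of the counting is unknown here, reads of the 2 genes may be mixed; ARSG itself had means of 10.2, 4.28 and 16.0 CPM in control, at 100 µM and at 200 µM. Its relative WIPI2, which recruits the conjugation enzymes, had a log2 fold change of 0.10 ± 0.086 (SE, edgeR adjusted p = 0.4) at 100 µM and 0.29 ± 0.086 (SE, edgeR adjusted p = 0.0242) at 200 µM. ATG2A, which carries lipid from the endoplasmic reticulum, stood at 15.9, 13.3 and 16.4 CPM in the control libraries, 34.3, 30.9 and 31.1 CPM at 100 µM and 26.3, 34.9 and 22.3 CPM at 200 µM. Both treated groups lay above control and overlapped with each other. For ATG2A the log2 fold change against control was 1.07 ± 0.16 (SE, edgeR adjusted p = 0.00112) at 100 µM and 0.87 ± 0.16 (SE, edgeR adjusted p = 0.00296) at 200 µM. ATG2A at 200 µM against 100 µM had a log2 difference of -0.20 ± 0.16 (SE, edgeR adjusted p = 0.334). ATG9A, the lipid scramblase of the seed vesicles, stood at 30.6, 31.8 and 30.9 CPM in the control libraries, 53.6, 44.5 and 48.7 CPM at 100 µM and 50.4, 54.6 and 40.8 CPM at 200 µM, again with both treated groups above control. For ATG9A the log2 fold change against control was 0.65 ± 0.12 (SE, edgeR adjusted p = 0.00292) at 100 µM and 0.64 ± 0.12 (SE, edgeR adjusted p = 0.00287) at 200 µM. ATG9A at 200 µM against 100 µM had a log2 difference of -0.011 ± 0.12 (SE, edgeR adjusted p = 0.95). ATG9A shares 38.8% of its exon bases with another gene on the same strand. WIPI2 was no longer called at 200 µM without any 1 of the control libraries or 200 µM replicate 1 or 2 (log2 0.25 to 0.30, adjusted p = 0.0581 to 0.0858). A call was gained for ATG2A between the doses without 200 µM replicate 2 (log2 -0.43, adjusted p = 0.0224), whereas without 200 µM replicate 3 the value was -0.074 (edgeR adjusted p = 0.656).

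The 6 conjugation enzymes had no member higher at 100 µM and none lower at 200 µM. At 100 µM 3 were lower, at 200 µM 2 were higher, and between the doses 4 were higher. That is 50%, 33.3% and 66.7% called, beside 37.1%, 37.3% and 44.4% of all genes tested. ATG4A, a protease that trims ATG8 proteins, stood at 16.7, 16.9 and 17.4 CPM in the control libraries, 12.1, 14.3 and 11.6 CPM at 100 µM and 28.1, 25.8 and 28.8 CPM at 200 µM. The 3 groups were separate, with the 100 µM libraries lowest and the 200 µM libraries highest. For ATG4A the log2 fold change against control was -0.43 ± 0.10 (SE, edgeR adjusted p = 0.012) at 100 µM and 0.70 ± 0.10 (SE, edgeR adjusted p = 0.000896) at 200 µM. ATG4A at 200 µM against 100 µM had a log2 difference of 1.12 ± 0.11 (SE, edgeR adjusted p = 4.00e-05). ATG12, a ubiquitin-like protein joined to ATG5, stood at 109, 109.8 and 105 CPM in the control libraries, 55.6, 66.4 and 66.3 CPM at 100 µM and 100.1, 76.6 and 118 CPM at 200 µM. Every 100 µM library was below every other library, and the 200 µM libraries overlapped with control. For ATG12 the log2 fold change against control was -0.78 ± 0.15 (SE, edgeR adjusted p = 0.00339) at 100 µM and -0.13 ± 0.15 (SE, edgeR adjusted p = 0.504) at 200 µM. ATG12 at 200 µM against 100 µM had a log2 difference of 0.65 ± 0.15 (SE, edgeR adjusted p = 0.00665). ATG3, the enzyme that passes ATG8 proteins to lipid, stood at 71.1, 75.7 and 71.5 CPM in the control libraries, 69.1, 71.6 and 74.5 CPM at 100 µM and 93.8, 80.1 and 156 CPM at 200 µM. Replicate 3 at 200 µM was far above the other two. For ATG3 the log2 fold change against control was -0.021 ± 0.21 (SE, edgeR adjusted p = 0.946) at 100 µM and 0.59 ± 0.21 (SE, edgeR adjusted p = 0.04997) at 200 µM. ATG3 at 200 µM against 100 µM had a log2 difference of 0.61 ± 0.21 (SE, edgeR adjusted p = 0.038). Without that library the log2 fold change of ATG3 at 200 µM was 0.27 (edgeR adjusted p = 0.00928), and its difference between the doses was 0.27 (edgeR adjusted p = 0.0094). ATG5 had a log2 fold change of -0.29 ± 0.10 (SE, edgeR adjusted p = 0.0424) and 0.16 ± 0.10 (SE, edgeR adjusted p = 0.224), its partner ATG16L1 of -0.29 ± 0.27 (SE, edgeR adjusted p = 0.43) and 0.43 ± 0.27 (SE, edgeR adjusted p = 0.237), and the activating enzyme ATG7 of -0.20 ± 0.13 (SE, edgeR adjusted p = 0.26) and -0.19 ± 0.13 (SE, edgeR adjusted p = 0.277), at 100 µM and 200 µM. ATG7 shares 18.1% of its exon bases with VGLL4 on the other strand, so reads of these genes may be mixed. VGLL4 had means of 60.6, 48.0 and 86.7 CPM in control, at 100 µM and at 200 µM. Those of ATG7 were 49.9, 43.4 and 43.6 CPM. ATG3 was no longer called at 200 µM without any 1 of the control libraries or any 1 of the 100 µM libraries (log2 0.58 to 0.62, adjusted p = 0.0697 to 0.129). ATG3 was also no longer called between the doses without any 1 of the control libraries or any 1 of the 100 µM libraries (log2 0.59 to 0.62, adjusted p = 0.0576 to 0.107). ATG4A was no longer called at 100 µM without 100 µM replicate 1 or 3 (log2 -0.39 to -0.35, adjusted p = 0.051 to 0.0586). ATG5 was no longer called at 100 µM without any 1 of the control libraries, any 1 of the 100 µM libraries or 200 µM replicate 1 (log2 -0.34 to -0.23, adjusted p = 0.0546 to 0.16).

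The 4 ATG8 genes did not move as one: at 200 µM MAP1LC3B and GABARAPL1 were higher, GABARAPL2 was lower, and GABARAP was not called. At 100 µM 3 of 4 were lower and none higher, and between the doses 3 were higher. MAP1LC3B, which encodes LC3B, the usual marker of autophagosomes, stood at 160.1, 159 and 159 CPM in the control libraries, 91.5, 99.9 and 106 CPM at 100 µM and 258, 225 and 273 CPM at 200 µM. The 3 groups were far apart, with tight control libraries, 100 µM lowest and 200 µM highest. For MAP1LC3B the log2 fold change against control was -0.68 ± 0.091 (SE, edgeR adjusted p = 0.000574) at 100 µM and 0.66 ± 0.091 (SE, edgeR adjusted p = 0.000585) at 200 µM. MAP1LC3B at 200 µM against 100 µM had a log2 difference of 1.34 ± 0.092 (SE, edgeR adjusted p = 7.06e-06). Its near-identical copy MAP1LC3B2 had means of 3.40, 2.36 and 5.81 CPM in the 3 groups, so reads may be split between them. GABARAPL1 stood at 68.6, 69 and 67.5 CPM in the control libraries, 63.2, 65.4 and 61.1 CPM at 100 µM and 122, 121 and 87.9 CPM at 200 µM. Highest were the 200 µM libraries, and 100 µM lay just under control. For GABARAPL1 the log2 fold change against control was -0.11 ± 0.12 (SE, edgeR adjusted p = 0.502) at 100 µM and 0.69 ± 0.12 (SE, edgeR adjusted p = 0.00218) at 200 µM. GABARAPL1 at 200 µM against 100 µM had a log2 difference of 0.81 ± 0.12 (SE, edgeR adjusted p = 0.000708). GABARAPL2 stood at 137, 130 and 129 CPM in the control libraries, 94.7, 104 and 110.1 CPM at 100 µM and 101, 97.7 and 84.2 CPM at 200 µM. Both treated groups lay below all control libraries and overlapped with each other. For GABARAPL2 the log2 fold change against control was -0.36 ± 0.093 (SE, edgeR adjusted p = 0.0153) at 100 µM and -0.48 ± 0.093 (SE, edgeR adjusted p = 0.00343) at 200 µM. GABARAPL2 at 200 µM against 100 µM had a log2 difference of -0.13 ± 0.093 (SE, edgeR adjusted p = 0.299). GABARAP stood at 191, 184 and 188 CPM in the control libraries, 160, 156 and 157 CPM at 100 µM and 195, 209.7 and 194 CPM at 200 µM. The 100 µM libraries were the lowest, and 200 µM lay just above control. For GABARAP the log2 fold change against control was -0.25 ± 0.065 (SE, edgeR adjusted p = 0.0153) at 100 µM and 0.088 ± 0.065 (SE, edgeR adjusted p = 0.317) at 200 µM. GABARAP at 200 µM against 100 µM had a log2 difference of 0.34 ± 0.065 (SE, edgeR adjusted p = 0.00269). GABARAP shares 30.5% of its exon bases with another gene on the same strand. GABARAP was no longer called at 100 µM without control replicate 1 or 3 or 100 µM replicate 2 or 3 (log2 -0.25 to -0.22, adjusted p = 0.0536 to 0.0834). GABARAPL2 was no longer called at 100 µM without control replicate 1 or 100 µM replicate 1 or 2 (log2 -0.35 to -0.30, adjusted p = 0.0613 to 0.0648).

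Of the 5 cargo receptors, 2 were lower at 100 µM and 2 higher at 200 µM, and 4 were higher at 200 µM than at 100 µM. The 40% called at each dose was near the 37.1% and 37.3% of all genes tested. Between the doses 80% were called, beside 44.4% of all genes. SQSTM1 encodes p62, which binds ubiquitin-tagged cargo and ATG8 proteins and is itself degraded with the cargo. It stood at 422, 348 and 431 CPM in the control libraries, 137, 169.5 and 131 CPM at 100 µM and 1596, 1759 and 1266 CPM at 200 µM. The groups were separated by wide gaps, with 100 µM lowest and 200 µM highest. For SQSTM1 the log2 fold change against control was -1.46 ± 0.15 (SE, edgeR adjusted p = 0.000142) at 100 µM and 1.94 ± 0.15 (SE, edgeR adjusted p = 2.64e-05) at 200 µM. SQSTM1 at 200 µM against 100 µM had a log2 difference of 3.40 ± 0.16 (SE, edgeR adjusted p = 9.73e-07). Between the doses this was the largest log2 difference of the 55 genes. SQSTM1 shares 20.7% of its exon bases with MRNIP on the other strand, which had means of 24.6, 18.4 and 57.0 CPM in the 3 groups, far below SQSTM1. OPTN, a receptor for damaged mitochondria and bacteria, stood at 53.1, 56 and 53.6 CPM in the control libraries, 21.7, 23.6 and 20.4 CPM at 100 µM and 60.5, 59.5 and 79.4 CPM at 200 µM. All 100 µM libraries were below all others, and the 200 µM libraries lay above control. For OPTN the log2 fold change against control was -1.31 ± 0.12 (SE, edgeR adjusted p = 8.65e-05) at 100 µM and 0.29 ± 0.12 (SE, edgeR adjusted p = 0.0847) at 200 µM. OPTN at 200 µM against 100 µM had a log2 difference of 1.60 ± 0.12 (SE, edgeR adjusted p = 1.38e-05). CALCOCO2, which encodes NDP52, stood at 127, 133 and 127 CPM in the control libraries, 115, 111 and 104 CPM at 100 µM and 162, 159.8 and 233 CPM at 200 µM. All 200 µM libraries were above the rest, with replicate 3 above the other two. For CALCOCO2 the log2 fold change against control was -0.24 ± 0.14 (SE, edgeR adjusted p = 0.217) at 100 µM and 0.52 ± 0.14 (SE, edgeR adjusted p = 0.0174) at 200 µM. CALCOCO2 at 200 µM against 100 µM had a log2 difference of 0.75 ± 0.14 (SE, edgeR adjusted p = 0.00222). TAX1BP1 had a log2 fold change of -0.54 ± 0.22 (SE, edgeR adjusted p = 0.0893) and 0.42 ± 0.22 (SE, edgeR adjusted p = 0.177), and NBR1 of -0.07 ± 0.062 (SE, edgeR adjusted p = 0.406) and 0.084 ± 0.062 (SE, edgeR adjusted p = 0.319), at 100 µM and 200 µM. CALCOCO2 was no longer called at 200 µM without control replicate 1 or 3 (log2 0.50 to 0.51, adjusted p = 0.0581 to 0.0612). A call was gained for OPTN at 200 µM without 200 µM replicate 2 (log2 0.36, adjusted p = 0.0406), TAX1BP1 at 200 µM without 200 µM replicate 2 (log2 0.63, adjusted p = 0.0178) and TAX1BP1 at 100 µM without 200 µM replicate 2 or 3 (log2 -0.52, adjusted p = 0.00147 to 0.024). OPTN without 200 µM replicate 3 was, at 200 µM, at 0.16 (edgeR adjusted p = 0.0795) and TAX1BP1 at 0.078 (edgeR adjusted p = 0.564). TAX1BP1 then differed between the doses by 0.59 (edgeR adjusted p = 0.00115), against 0.96 with all libraries, and CALCOCO2 at 200 µM was at 0.33 (edgeR adjusted p = 0.000836).

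**Figure D4:**
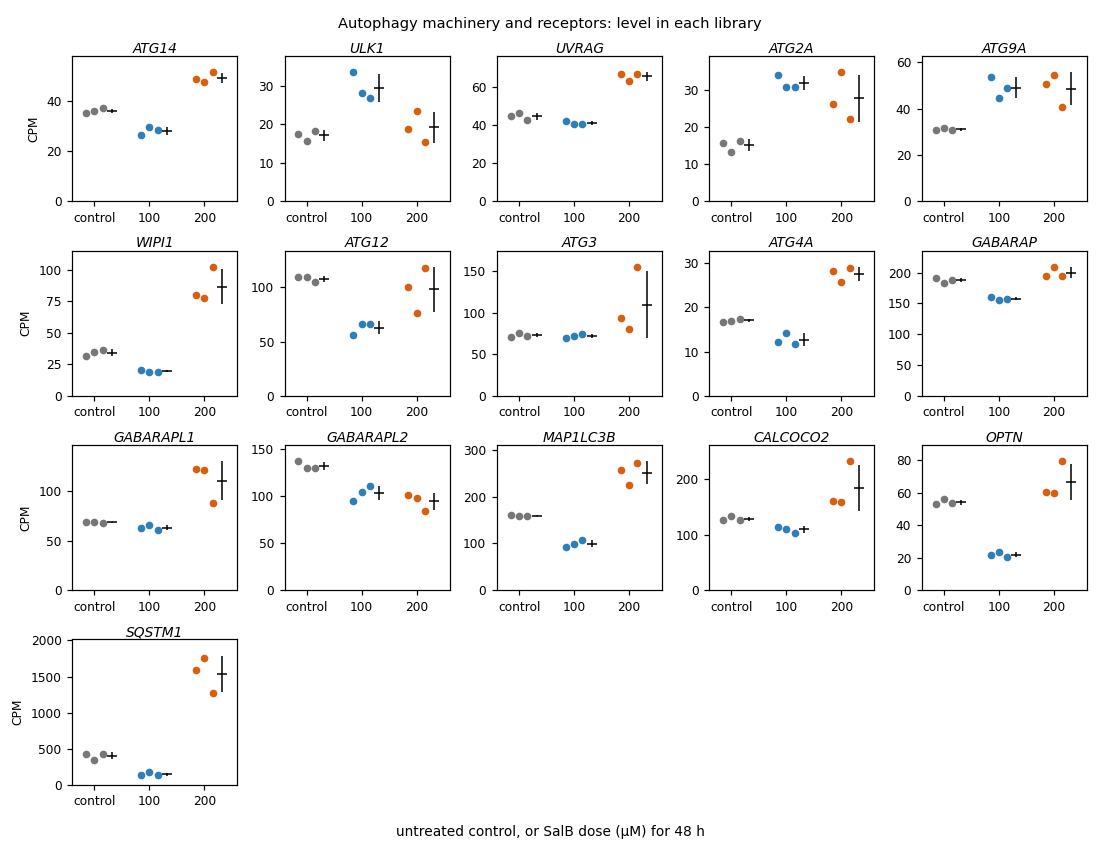
Level in CPM (vertical axes, each from 0) of 16 autophagy genes in each of the 9 libraries (points), by group (horizontal axis); the black mark beside each group is the mean with its SD over 3 libraries. SQSTM1 at 200 µM lies at 1266 to 1759 CPM, above the control libraries at 348 to 431 CPM, and at 100 µM below them at 131 to 170 CPM.

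In the TFEB axis, 6 of 7 genes were higher at 200 µM and none lower, with a median log2 fold change of 1.01. At 100 µM 1 was higher and 2 lower, and between the doses 6 were higher. TFEB was scarce, at 1.73, 1.03 and 1.59 CPM in the control libraries, 2.41, 3.5 and 1.98 CPM at 100 µM and 3.88, 4.81 and 3.18 CPM at 200 µM. Both treated groups lay above control, and they overlapped with each other. For TFEB the log2 fold change against control was 0.86 ± 0.29 (SE, edgeR adjusted p = 0.042) at 100 µM and 1.44 ± 0.29 (SE, edgeR adjusted p = 0.00396) at 200 µM. TFEB at 200 µM against 100 µM had a log2 difference of 0.59 ± 0.28 (SE, edgeR adjusted p = 0.112). TFE3, its relative, stood at 27.6, 20.2 and 27.5 CPM in the control libraries, 30.4, 33.3 and 27.1 CPM at 100 µM and 45.2, 45.1 and 33.8 CPM at 200 µM. The 200 µM libraries were above all others, and the 100 µM libraries overlapped with control. For TFE3 the log2 fold change against control was 0.27 ± 0.16 (SE, edgeR adjusted p = 0.22) at 100 µM and 0.72 ± 0.16 (SE, edgeR adjusted p = 0.00725) at 200 µM. TFE3 at 200 µM against 100 µM had a log2 difference of 0.45 ± 0.16 (SE, edgeR adjusted p = 0.0454). RRAGC and RRAGD encode Rag GTPases that hold mTORC1 and TFEB at the lysosome. RRAGC stood at 32.8, 35.4 and 32 CPM in the control libraries, 30.3, 31.3 and 31.5 CPM at 100 µM and 80.9, 72.7 and 76.8 CPM at 200 µM. The 200 µM libraries were far above the rest, and the 100 µM libraries just under control. For RRAGC the log2 fold change against control was -0.11 ± 0.081 (SE, edgeR adjusted p = 0.335) at 100 µM and 1.20 ± 0.081 (SE, edgeR adjusted p = 1.15e-05) at 200 µM. RRAGC at 200 µM against 100 µM had a log2 difference of 1.31 ± 0.081 (SE, edgeR adjusted p = 3.80e-06). RRAGC shares 22.9% of its exon bases with another gene on the same strand. RRAGD stood at 21.4, 20.1 and 19.99 CPM in the control libraries, 15.4, 15.7 and 14 CPM at 100 µM and 45.1, 43.6 and 53.3 CPM at 200 µM. The groups were separate, with 100 µM lowest and 200 µM highest. For RRAGD the log2 fold change against control was -0.45 ± 0.10 (SE, edgeR adjusted p = 0.00904) at 100 µM and 1.21 ± 0.10 (SE, edgeR adjusted p = 4.13e-05) at 200 µM. RRAGD at 200 µM against 100 µM had a log2 difference of 1.65 ± 0.10 (SE, edgeR adjusted p = 4.17e-06). FLCN, which with FNIP1 acts on these GTPases, had a log2 fold change of -0.13 ± 0.25 (SE, edgeR adjusted p = 0.726) and 1.01 ± 0.25 (SE, edgeR adjusted p = 0.012), and FNIP1 of -0.62 ± 0.18 (SE, edgeR adjusted p = 0.0251) and 0.53 ± 0.18 (SE, edgeR adjusted p = 0.0436), at 100 µM and 200 µM. Without 200 µM replicate 3, FNIP1 was at 0.29 (edgeR adjusted p = 0.0234) at 200 µM and FLCN at 1.31. FLCN shares 11.9% of its exon bases with another gene. MCOLN1, a calcium channel of the lysosome, had a log2 fold change of -0.06 ± 0.14 (SE, edgeR adjusted p = 0.764) and 0.37 ± 0.14 (SE, edgeR adjusted p = 0.0629). FNIP1 was no longer called at 100 µM without any 1 of the control libraries or any 1 of the 100 µM libraries (log2 -0.65 to -0.58, adjusted p = 0.0565 to 0.0896). FNIP1 was also no longer called at 200 µM without any 1 of the control libraries, any 1 of the 100 µM libraries or 200 µM replicate 1 (log2 0.51 to 0.58, adjusted p = 0.0607 to 0.121). TFEB was no longer called at 100 µM without any 1 of the control libraries, 100 µM replicate 1 or 2 or 200 µM replicate 1 (log2 0.61 to 1.00, adjusted p = 0.0596 to 0.153). TFE3 was no longer called between the doses without control replicate 1 or 3, any 1 of the 100 µM libraries or 200 µM replicate 1 or 2 (log2 0.36 to 0.51, adjusted p = 0.0605 to 0.17). MCOLN1 was no longer called between the doses without control replicate 2, 100 µM replicate 2 or 3 or 200 µM replicate 1 or 2 (log2 0.30 to 0.43, adjusted p = 0.05 to 0.141).

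The 5 genes of the lysosomal membrane and of cholesterol export moved in different directions. At 100 µM 1 was higher and 2 lower, at 200 µM 2 were higher and 1 lower, and between the doses 4 were higher and 1 lower. LAMP1, a major glycoprotein of the membrane, stood at 110.2, 117 and 108 CPM in the control libraries, 221, 228 and 225 CPM at 100 µM and 199, 190.5 and 183 CPM at 200 µM. Both treated groups were far above control, with 100 µM the highest. For LAMP1 the log2 fold change against control was 1.00 ± 0.069 (SE, edgeR adjusted p = 1.66e-05) at 100 µM and 0.77 ± 0.069 (SE, edgeR adjusted p = 5.28e-05) at 200 µM. LAMP1 at 200 µM against 100 µM had a log2 difference of -0.24 ± 0.068 (SE, edgeR adjusted p = 0.0197). LAMP2 had a log2 fold change of -0.19 ± 0.13 (SE, edgeR adjusted p = 0.29) and 0.32 ± 0.13 (SE, edgeR adjusted p = 0.0881), and with the GC trend removed by 0.22 at 100 µM and 0.52 at 200 µM. NPC1 and NPC2 pass cholesterol out of the lysosome. NPC1 stood at 32.8, 32.1 and 34.3 CPM in the control libraries, 41.1, 37.3 and 39.4 CPM at 100 µM and 81.3, 85.5 and 68 CPM at 200 µM. Far above the others were the 200 µM libraries. For NPC1 the log2 fold change against control was 0.25 ± 0.10 (SE, edgeR adjusted p = 0.0802) at 100 µM and 1.24 ± 0.10 (SE, edgeR adjusted p = 3.17e-05) at 200 µM. NPC1 at 200 µM against 100 µM had a log2 difference of 1.00 ± 0.10 (SE, edgeR adjusted p = 6.22e-05). NPC2 stood at 141, 134 and 142 CPM in the control libraries, 80.1, 70.05 and 74.2 CPM at 100 µM and 104, 108 and 109 CPM at 200 µM. The groups were separate, and both treated groups were below control, with 100 µM lowest. For NPC2 the log2 fold change against control was -0.89 ± 0.076 (SE, edgeR adjusted p = 4.83e-05) at 100 µM and -0.38 ± 0.075 (SE, edgeR adjusted p = 0.00426) at 200 µM. NPC2 at 200 µM against 100 µM had a log2 difference of 0.52 ± 0.076 (SE, edgeR adjusted p = 0.000572). The tetraspanin CD63 had the highest level per kilobase of exon of all members in control (308 CPM per kb), and had a log2 fold change of -0.78 ± 0.11 (SE, edgeR adjusted p = 0.000768) and 0.13 ± 0.11 (SE, edgeR adjusted p = 0.388). LAMP1 was no longer called between the doses without 100 µM replicate 2 (log2 -0.24, adjusted p = 0.0569). LAMP2 was no longer called between the doses without 100 µM replicate 1 (log2 0.47, adjusted p = 0.0519). A call was gained for LAMP2 at 200 µM without 200 µM replicate 2 (log2 0.44, adjusted p = 0.0126) and NPC1 at 100 µM without 200 µM replicate 2 or 3 (log2 0.27, adjusted p = 0.00345 to 0.0394). LAMP2 without 200 µM replicate 3 was, at 200 µM, at 0.17 (edgeR adjusted p = 0.102), and between the doses at 0.34 (edgeR adjusted p = 0.00515) against 0.52 with all libraries.

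Of the 7 proteases, 6 were called higher at 200 µM and CTSS was lower at both doses. At 100 µM 4 were higher and 2 lower, and between the doses 4 were higher. CTSL, a cysteine protease, stood at 144, 147 and 145 CPM in the control libraries, 102, 94 and 86.5 CPM at 100 µM and 241, 241 and 206 CPM at 200 µM. The groups were separate, with 100 µM lowest and 200 µM highest. For CTSL the log2 fold change against control was -0.63 ± 0.09 (SE, edgeR adjusted p = 0.000875) at 100 µM and 0.66 ± 0.09 (SE, edgeR adjusted p = 0.00055) at 200 µM. CTSL at 200 µM against 100 µM had a log2 difference of 1.29 ± 0.091 (SE, edgeR adjusted p = 8.68e-06). CTSS, a cysteine protease best known from antigen-presenting cells, stood at 71.9, 74.8 and 68.8 CPM in the control libraries, 8.03, 8.47 and 10.7 CPM at 100 µM and 24.8, 18.8 and 26.2 CPM at 200 µM. Every treated library was below every control library, and 100 µM was the lowest. For CTSS the log2 fold change against control was -2.99 ± 0.16 (SE, edgeR adjusted p = 4.95e-06) at 100 µM and -1.63 ± 0.15 (SE, edgeR adjusted p = 5.95e-05) at 200 µM. CTSS at 200 µM against 100 µM had a log2 difference of 1.36 ± 0.15 (SE, edgeR adjusted p = 0.000115). TPP1, a tripeptidyl peptidase, stood at 32.9, 32.9 and 35.9 CPM in the control libraries, 66.3, 61.5 and 57.9 CPM at 100 µM and 65, 71.8 and 129 CPM at 200 µM. Both treated groups were above control, and 200 µM replicate 3 was far above all others. For TPP1 the log2 fold change against control was 0.87 ± 0.23 (SE, edgeR adjusted p = 0.0158) at 100 µM and 1.39 ± 0.23 (SE, edgeR adjusted p = 0.00159) at 200 µM. TPP1 at 200 µM against 100 µM had a log2 difference of 0.52 ± 0.22 (SE, edgeR adjusted p = 0.0907). Without that library TPP1 was at 1.03 (edgeR adjusted p = 3.23e-06) at 200 µM, and it shares 11.6% of its exon bases with another gene. CTSA, which protects NEU1, had a log2 fold change of 0.33 ± 0.082 (SE, edgeR adjusted p = 0.0125) and 0.61 ± 0.082 (SE, edgeR adjusted p = 0.000526). CTSB had a log2 fold change of 0.048 ± 0.091 (SE, edgeR adjusted p = 0.714) and 0.39 ± 0.091 (SE, edgeR adjusted p = 0.00954). The aspartic protease CTSD had a log2 fold change of 0.47 ± 0.12 (SE, edgeR adjusted p = 0.0125) and 0.54 ± 0.12 (SE, edgeR adjusted p = 0.0066), and CTSZ of 0.45 ± 0.072 (SE, edgeR adjusted p = 0.00143) and 0.44 ± 0.072 (SE, edgeR adjusted p = 0.00151). CTSD shares 41.7% and CTSA 17.7% of their exon bases with other genes. CTSA was no longer called at 100 µM without control replicate 2 or 100 µM replicate 1 (log2 0.28 to 0.29, adjusted p = 0.055 to 0.0612). CTSA was also no longer called between the doses without 100 µM replicate 2 or 3 (log2 0.21 to 0.25, adjusted p = 0.0868 to 0.11). CTSB was no longer called between the doses without 100 µM replicate 2 or 3 (log2 0.26 to 0.31, adjusted p = 0.0639 to 0.0865). CTSD was no longer called at 100 µM without control replicate 1 or 2 or 100 µM replicate 1 (log2 0.41 to 0.44, adjusted p = 0.0537 to 0.0544). TPP1 was no longer called at 100 µM without control replicate 1 or 2 or 100 µM replicate 1 (log2 0.82 to 0.85, adjusted p = 0.0567 to 0.0582). A call was gained for TPP1 between the doses without 200 µM replicate 1 or 2 (log2 0.62 to 0.68, adjusted p = 0.0341 to 0.0488), whereas without 200 µM replicate 3 the value was 0.14 (edgeR adjusted p = 0.177).

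Among the 7 genes of the glycosidases, the acid lipase and their cofactors, 2 were higher and none lower in each comparison with control, and between the doses 3 were higher and 1 lower. The 28.6% called at each dose was below the 37.1% and 37.3% of all genes tested. Between the doses 57.1% were called, beside 44.4% of all genes. GAA, which degrades glycogen, stood at 17.9, 15 and 13.9 CPM in the control libraries, 27.3, 26.8 and 23.7 CPM at 100 µM and 16.6, 19.3 and 10.2 CPM at 200 µM. The 100 µM libraries were above the rest, and 200 µM overlapped with control. For GAA the log2 fold change against control was 0.73 ± 0.21 (SE, edgeR adjusted p = 0.0237) at 100 µM and -0.021 ± 0.21 (SE, edgeR adjusted p = 0.947) at 200 µM. GAA at 200 µM against 100 µM had a log2 difference of -0.75 ± 0.21 (SE, edgeR adjusted p = 0.0174). GRN, the precursor of granulins, stood at 65.6, 65 and 70.7 CPM in the control libraries, 109, 104 and 97.2 CPM at 100 µM and 114, 127 and 90.5 CPM at 200 µM. Both treated groups were above control. For GRN the log2 fold change against control was 0.62 ± 0.12 (SE, edgeR adjusted p = 0.00389) at 100 µM and 0.72 ± 0.12 (SE, edgeR adjusted p = 0.00172) at 200 µM. GRN at 200 µM against 100 µM had a log2 difference of 0.10 ± 0.12 (SE, edgeR adjusted p = 0.55). NEU1, a sialidase, was scarce, at 2.94, 2.45 and 3.17 CPM in the control libraries, 2.6, 2.95 and 2.43 CPM at 100 µM and 6.6, 7.08 and 4.73 CPM at 200 µM. The 200 µM libraries were above all others. For NEU1 the log2 fold change against control was -0.10 ± 0.19 (SE, edgeR adjusted p = 0.715) at 100 µM and 1.10 ± 0.19 (SE, edgeR adjusted p = 0.00204) at 200 µM. NEU1 at 200 µM against 100 µM had a log2 difference of 1.20 ± 0.19 (SE, edgeR adjusted p = 0.000947). PSAP, the precursor of saposins, had the second highest level per kilobase in control (167 CPM per kb), and had a log2 fold change of -0.051 ± 0.17 (SE, edgeR adjusted p = 0.84) and 0.27 ± 0.17 (SE, edgeR adjusted p = 0.251). HEXA, which shares 10.1% of its exon bases with another gene, had a log2 fold change of -0.085 ± 0.12 (SE, edgeR adjusted p = 0.594) and 0.32 ± 0.12 (SE, edgeR adjusted p = 0.0558), GLA of -0.13 ± 0.12 (SE, edgeR adjusted p = 0.433) and 0.27 ± 0.12 (SE, edgeR adjusted p = 0.124), and LIPA, the lipase, of -0.092 ± 0.10 (SE, edgeR adjusted p = 0.487) and 0.063 ± 0.10 (SE, edgeR adjusted p = 0.642), at 100 µM and 200 µM. GAA was no longer called at 100 µM without control replicate 2 or 3 or 100 µM replicate 1 or 2 (log2 0.65 to 0.72, adjusted p = 0.0666 to 0.083). GAA was also no longer called between the doses without 100 µM replicate 1 or 2 (log2 -0.74 to -0.71, adjusted p = 0.052 to 0.0568). GLA was no longer called between the doses without 100 µM replicate 2 or 3 or 200 µM replicate 1 or 2 (log2 0.28 to 0.38, adjusted p = 0.0692 to 0.119). HEXA was no longer called between the doses without any 1 of the 100 µM libraries or 200 µM replicate 1 or 2 (log2 0.25 to 0.42, adjusted p = 0.0501 to 0.0763).

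The vacuolar proton pump acidifies the lysosome, and 3 of its 4 listed genes were higher at 200 µM. At 100 µM 2 were higher and none lower, and between the doses 1 was higher. ATP6V0D1, of the membrane part, stood at 54.8, 55.5 and 60.9 CPM in the control libraries, 78.5, 68.4 and 65.7 CPM at 100 µM and 81, 92.3 and 79.7 CPM at 200 µM. Both treated groups were above control. For ATP6V0D1 the log2 fold change against control was 0.31 ± 0.10 (SE, edgeR adjusted p = 0.0346) at 100 µM and 0.56 ± 0.10 (SE, edgeR adjusted p = 0.00218) at 200 µM. ATP6V0D1 at 200 µM against 100 µM had a log2 difference of 0.25 ± 0.10 (SE, edgeR adjusted p = 0.0661). ATP6AP1, an accessory subunit, stood at 57.2, 52.9 and 56.6 CPM in the control libraries, 86.3, 76.4 and 76.1 CPM at 100 µM and 75.6, 86.5 and 59.97 CPM at 200 µM. Both treated groups were above control, with 200 µM replicate 3 closest to it. For ATP6AP1 the log2 fold change against control was 0.52 ± 0.13 (SE, edgeR adjusted p = 0.0123) at 100 µM and 0.41 ± 0.13 (SE, edgeR adjusted p = 0.0315) at 200 µM. ATP6AP1 at 200 µM against 100 µM had a log2 difference of -0.10 ± 0.13 (SE, edgeR adjusted p = 0.538). ATP6V1H, of the cytoplasmic part, stood at 50.3, 54.7 and 50.1 CPM in the control libraries, 47.4, 50.1 and 45.9 CPM at 100 µM and 69.7, 69.9 and 60.4 CPM at 200 µM. Its 200 µM libraries were the highest. For ATP6V1H the log2 fold change against control was -0.11 ± 0.088 (SE, edgeR adjusted p = 0.345) at 100 µM and 0.37 ± 0.088 (SE, edgeR adjusted p = 0.0103) at 200 µM. ATP6V1H at 200 µM against 100 µM had a log2 difference of 0.48 ± 0.088 (SE, edgeR adjusted p = 0.00209). ATP6V1A, the catalytic subunit, had a log2 fold change of -0.10 ± 0.11 (SE, edgeR adjusted p = 0.53) and 0.087 ± 0.11 (SE, edgeR adjusted p = 0.567). ATP6AP1 was no longer called at 100 µM without control replicate 2 or 100 µM replicate 1 (log2 0.46 to 0.48, adjusted p = 0.0533). ATP6AP1 was also no longer called at 200 µM without any 1 of the control libraries, 100 µM replicate 2 or 3 or 200 µM replicate 1 or 2 (log2 0.29 to 0.43, adjusted p = 0.0527 to 0.106). ATP6V0D1 was no longer called at 100 µM without control replicate 1 or 2 or 100 µM replicate 1 or 2 (log2 0.23 to 0.36, adjusted p = 0.063 to 0.133). A call was gained for ATP6V0D1 between the doses without 100 µM replicate 1 or 200 µM replicate 3 (log2 0.28 to 0.33, adjusted p = 0.0243 to 0.0391).

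**Figure D5:**
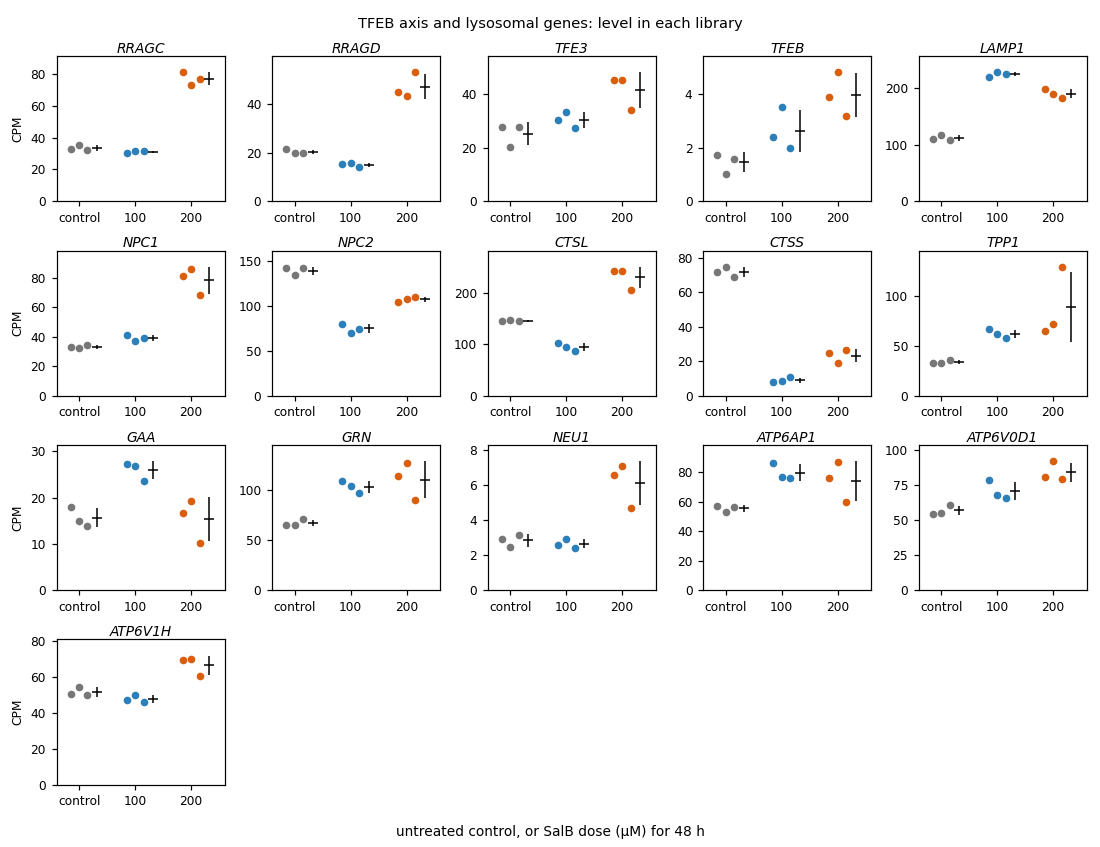
Level in CPM (vertical axes, each from 0) of 16 TFEB axis and lysosomal genes in each of the 9 libraries (points), by group (horizontal axis); the black mark beside each group is the mean with its SD over 3 libraries. CTSS lies at 68.8 to 74.8 CPM in control and at 8.03 to 10.7 CPM at 100 µM, and RRAGC at 200 µM lies above all other libraries, at 72.7 to 80.9 CPM.

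Per kilobase of exon, CD63 (308), PSAP (167), GABARAP (82.8), CTSZ (72.1), CTSL (61.3) and SQSTM1 (52.3 CPM per kb) were the most abundant members in control. At 200 µM SQSTM1 had rank 3, at 201 CPM per kb, just under PSAP at 202. TFEB (0.257) and NEU1 (0.592 CPM per kb) were the scarcest in control.

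Other genes of the same pathways were counted in lists beside the members. Paired values are log2 fold changes against control at 100 µM and then at 200 µM, and each gene named with a pair was called in at least 1 of the 2 comparisons. Of 27 further machinery genes, 4 were higher and 4 lower at 100 µM, and 6 higher and 4 lower at 200 µM, beside 37.1% and 37.3% of all genes called. Without 200 µM replicate 3 the counts were 8 and 10 at 100 µM and 12 and 6 at 200 µM, where 56.1% and 53.8% of all genes were called. Among the called genes of this list, AMBRA1, a regulator of the lipid kinase, rose most at 100 µM (0.77 and 0.63 at the 2 doses), PIK3C3, the lipid kinase itself, fell most at 100 µM (-0.65 and -0.029), ZFYVE1 rose most at 200 µM (0.49 and 1.07) and the scarce MAP1LC3C fell most at 200 µM (-1.31 and -1.85). MAP1LC3C was not called at 100 µM (edgeR adjusted p = 0.0844), and was called there without 200 µM replicate 2 or 3 (log2 -1.28, adjusted p = 0.0131 to 0.0234). Of 15 mitophagy and organelle receptor genes, 1 was higher and 6 lower at 100 µM, and 3 higher and 2 lower at 200 µM. That is 46.7% and 33.3% called, beside 37.1% and 37.3% of all genes. Without 200 µM replicate 3 the counts were 3 and 7, and 5 and 5, where 56.1% and 53.8% of all genes were called. BNIP3, a mitochondrial receptor, stood at 445, 449 and 414 CPM in the control libraries, 103, 108 and 109 CPM at 100 µM and 248, 220 and 270 CPM at 200 µM, and its groups were separate, with 100 µM lowest. For BNIP3 the log2 fold change against control was -2.03 ± 0.089 (SE, edgeR adjusted p = 1.83e-06) at 100 µM and -0.83 ± 0.086 (SE, edgeR adjusted p = 0.00013) at 200 µM. RTN3 had a log2 fold change of 0.42 and -0.0054, and CALCOCO1 of -0.045 and 0.65. Of 26 nutrient-sensing genes, 7 were higher and 4 lower at 100 µM, and 5 and 5 at 200 µM. That is 42.3% and 38.5% called, again beside 37.1% and 37.3% of all genes. Without 200 µM replicate 3 they were 9 and 5, and 7 and 5. NPRL3 had a log2 fold change of 1.16 and 0.056, SLC38A9 of -0.83 and 0.19, SESN2 of 0.51 and 1.08 and LAMTOR2 of -0.24 and -0.58. MAP1LC3C was no longer called at 200 µM without any 1 of the control libraries, 100 µM replicate 3 or 200 µM replicate 1 (log2 -1.93 to -1.57, adjusted p = 0.0509 to 0.102). SESN2 was no longer called at 100 µM without any 1 of the control libraries, any 1 of the 100 µM libraries or 200 µM replicate 1 (log2 0.45 to 0.59, adjusted p = 0.0525 to 0.136). LAMTOR2 was no longer called at 200 µM without any 1 of the control libraries, 100 µM replicate 2 or 200 µM replicate 1 (log2 -0.62 to -0.54, adjusted p = 0.0511 to 0.0854).

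Of 36 further lysosomal hydrolases, 12 were higher and 6 lower at 100 µM, and 12 and 8 at 200 µM. That is 50% and 55.6% called, beside 37.1% and 37.3% of all genes, which hold for each list below. Without 200 µM replicate 3 the counts were 17 and 6, and 17 and 10, where 56.1% and 53.8% of all genes were called. PLBD2 had a log2 fold change of 1.22 and 0.92, ASAH1, the acid ceramidase, of -0.67 and 0.021, ACP5 of 0.18 and 1.28 and CTSV of 0.85 and -0.97. Of 29 membrane and sorting genes, 9 were higher and 7 lower at 100 µM, and 9 and 1 at 200 µM (55.2% and 34.5% called). Without that library they were 14 and 9 at 100 µM, and 19 higher and 2 lower at 200 µM. SLC17A5, the sialic acid exporter, stood at 18, 17.2 and 19.3 CPM in the control libraries, 10.5, 10.3 and 11 CPM at 100 µM and 51, 44.3 and 44.6 CPM at 200 µM, with 100 µM lowest and 200 µM highest and no overlap. For SLC17A5 the log2 fold change against control was -0.78 ± 0.10 (SE, edgeR adjusted p = 0.000356) at 100 µM and 1.36 ± 0.094 (SE, edgeR adjusted p = 1.31e-05) at 200 µM. The sorting receptor IGF2R had a log2 fold change of 1.08 and 1.12, the scarce LAMP3 of -1.61 and 1.25, and GNPTAB of 0.052 and -0.35. Of 14 further pump genes, 3 were higher and 7 lower at 100 µM, and 5 and 1 at 200 µM (71.4% and 42.9% called). Between the doses 10 were higher and 1 lower at 200 µM than at 100 µM (78.6% called, beside 44.4% of all genes). Leaving out 200 µM replicate 3 gave 3 and 9, 7 and 2, and 11 and 1. ATP6V1G1 had a log2 fold change of -0.97 and -0.27, ATP6V0C of 0.66 and 0.95, ATP6V1C2 of -0.37 and 1.41 and ATP6V0E2 of 0.59 and -0.46. ATP6V0C, ATP6V1C2 and ATP6V0E2 share 57.5%, 29.7% and 12.8% of their exon bases with other genes. Of 17 FOXO, AMPK and MiT-family genes, 3 were higher and 3 lower at 100 µM, and 4 and 5 at 200 µM (35.3% and 52.9% called). Without 200 µM replicate 3 they were 4 and 6 of 18 at both doses. FOXO1 had a log2 fold change of 0.81 and 1.43, MITF, the melanocyte relative of TFEB, of -0.70 and -0.52, and PPP3CB, a catalytic subunit of calcineurin, of -0.31 and -1.25. LAMP3 was no longer called at 100 µM without control replicate 2 or 100 µM replicate 3 (log2 -1.29 to -1.24, adjusted p = 0.0633 to 0.086). LAMP3 was also no longer called at 200 µM without control replicate 1 or 3 or 200 µM replicate 1 (log2 1.07 to 1.29, adjusted p = 0.0579 to 0.107). GNPTAB was no longer called at 200 µM without any 1 of the control libraries or 200 µM replicate 1 or 2 (log2 -0.37 to -0.29, adjusted p = 0.0523 to 0.0893). ATP6V0C was no longer called at 100 µM without any 1 of the control libraries or any 1 of the 100 µM libraries (log2 0.64 to 0.71, adjusted p = 0.0742 to 0.124). ATP6V1C2 was no longer called at 200 µM without any 1 of the control libraries (log2 1.38 to 1.44, adjusted p = 0.0662 to 0.0787). MITF was no longer called at 200 µM without any 1 of the control libraries or 200 µM replicate 1 (log2 -0.56 to -0.44, adjusted p = 0.0505 to 0.0978). PPP3CB was no longer called at 100 µM without any 1 of the control libraries or any 1 of the 100 µM libraries (log2 -0.34 to -0.25, adjusted p = 0.0522 to 0.117).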

How the data were processed

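The authors deposited unnormalized read counts for each gene in each of 9 libraries. FastQC, HISAT2, featureCounts and DESeq2 with GRCh38 are named in the submitters' processing notes, with no versions; the sources used here give neither the annotation release nor the strand setting. Libraries came from poly-T enriched RNA, per the labels' protocols. The table held 22605 features, of which 2142 were assembled transcripts left out of the tests. Genes were filtered with filterByExpr of edgeR 4.0.16 (R 4.3.3), scaled by TMM, and tested with robust quasi-likelihood F tests on the authors' counts over all 9 libraries (6 residual degrees of freedom), with Benjamini-Hochberg adjustment over 13968 genes and a threshold of 0.05. For 3 against 3 libraries the smallest two-sided p of an exact permutation test is 0.1. Standard errors were derived from each log2 fold change and its F value. Positions, exon overlaps (marked from 10%) and GC content came from GENCODE 29, and promoter windows from RefSeq on GRCh38.p14. Total counts were 27348621 to 30629685 per library. Within each group, pairs of libraries differed by more than sampling noise (chi-square per degree of freedom 7.49 to 156), so none was counted as a copy. The fitting code was tested on simulated data. The members and gene lists were chosen with earlier results of these data known. Named in full were, in each role group, the 3 called members with the largest change against control, and always SQSTM1, the ATG8 genes, TFEB and TFE3; in other lists, the called gene that rose and the one that fell most at each dose. Promoters shown were those of the first 6 members named in full with CACGTG, by size of change at 200 µM. Alternatives were DESeq2 1.42.0, other scalings and filters, a GC trend removed (lowess span 0.3), a replicate block, a fold threshold and each library left out. A further deposited table of 100 features was not used here.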

Additional observations from a re-analysis of the deposited data

How the results depend on the processing

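No called change of a member turned its sign at 200 µM or between the doses under the 19 alternative fits. At 100 µM ATG5 turned to 0.063 and LAMP2 to 0.22 with the GC trend removed, and to 0.058 and 0.22 with the replicate block added, and the cause was not tested. With the GC trend removed, 9 members were higher at 100 µM. With a log2 fold change of at least 0.5, 19 members were called at 100 µM (9 higher, 10 lower), 1 was lower at 200 µM and 2 were lower between the doses, since the threshold asks for more. Fitting only the 2 groups compared called 8417 of all genes at 100 µM against 5181, 3875 at 200 µM against 5211 and 4867 between the doses against 6196. Of the members it called 37, 29 and 29 in these comparisons, against 30, 34 and 36. Leaving out 1 library gave 18 to 37 called members, 6 to 17 higher members and 3469 to 7943 genes in all at 100 µM, and 2 to 6 lower members between the doses. Deviations of each library from its group mean were correlated between groups. They correlated at -0.16 to 0.027 for libraries of the same number and at -0.057 to 0.168 for those of different numbers, so the numbers were not read as pairs. A replicate block called 26, 30 and 32 members in the 3 comparisons, against 30, 34 and 36, and 4264, 4369 and 5404 of all genes. The 3 libraries per group limit precision, and 12 members share 10% or more of their exon bases with another gene.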
